A study of Mus musculus with 10 samples.

Results

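Bile acid synthesis, transport and sensing in the liver was followed through 10 genes, taken as fixed symbols and read from the rows of the raw count table after mapping gene IDs with GENCODE M21. All 10 were among the 43629 genes of the table and all 10 passed the filter on low counts that left 14143 genes for testing. They comprise 5 enzymes that make or conjugate bile acids (Cyp7a1, Cyp8b1, Cyp27a1, Cyp7b1 and Baat), 3 transporters (Slc10a1, Abcb11 and Abcb4) and 2 nuclear receptors (Nr1h4 and Nr0b2).

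The livers came from 10 male KL mice, a genetically engineered lung cancer model that carries floxed Lkb1 (Lkb1 flox/flox) among its alleles. They were backcrossed to FVB and had lung tumours induced as adults by adenovirus carrying CMV-Cre given through the nose. The study split these tumour-bearing mice by body weight into a group with cancer anorexia-cachexia syndrome (CACS, 5 mice, numbered 16 to 20) and a group without it (NCACS, 5 mice, numbered 11 to 15), and no tumour-free mouse was part of the comparison. In the study, CACS meant that more than 15% of peak body weight had been lost. The weight change recorded in the labels was -8.00% ± 4.64 (SD, n = 5) in NCACS and -30.6% ± 1.82 (SD, n = 5) in CACS. The groups thus differ by definition in weight loss. The CMV promoter is not restricted to a cell type, both groups carried the same alleles and virus, and the time of day and food intake at collection are not given for these mice in the sources used here.

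Bile acids are made from cholesterol in hepatocytes by a classical route that opens with Cyp7a1 and an alternative route that opens with Cyp27a1 and continues with Cyp7b1. Cyp8b1 adds the hydroxyl group that makes cholic acid, and so sets how much of the pool is cholic acid. The products are conjugated, pumped into bile, absorbed in the ileum and taken up again by the liver. The receptor FXR (Nr1h4) binds bile acids in the hepatocyte and induces the repressor SHP (Nr0b2), while the ileum sends back an FGF15 signal, and both lower synthesis.

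Each liver gave between 31459179 and 40746178 counted reads, with medians of 33020012 in NCACS and 35627014 in CACS, and every one of the 10 genes had at least 382 reads in every liver. No pair of livers in a group agreed within sampling noise, so all 10 were kept as separate samples. Nothing in the labels names a batch. The tissue label fitted the markers of hepatocytes, with Alb between 45741 and 107315 CPM (reads scaled to a common library total) over the 10 livers and 0 of 6 tested hepatocyte markers past the test between groups. Of those 6 markers, 5 had a positive log2 fold change, and the median was 0.39. Marker lists of cholangiocytes (6 tested), endothelial cells (5), stellate cells (6) and lymphocytes (3) also had 0 genes past the test, while 1 of 6 Kupffer cell markers was lower in CACS (Cd5l, log2 fold change -0.90, edgeR adjusted p = 0.0374) and 1 of 4 lung epithelial markers was higher (Sftpa1, log2 fold change 1.27, edgeR adjusted p = 0.0323). The summed level of the Kupffer list ran from 149 to 240.2 CPM in NCACS and from 86.7 to 169.9 CPM in CACS. All 6 of its genes had a negative log2 fold change. Among them, Clec4f was at a mean of 74.2 CPM in NCACS and 68.6 CPM in CACS (log2 fold change -0.11, edgeR adjusted p = 0.782). Over all genes tested, 3.80% passed in either direction.

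Of the 10 genes, Cyp8b1 alone passed the test and was lower in CACS livers, by 7.96-fold. The other 9 did not pass, among them Cyp7a1, whose level varied more within the CACS group than any other member did within a group. Across all genes tested, 538 of 14143 (3.80%) passed an adjusted p of 0.05 in edgeR's quasi-likelihood test, 267 of them higher in CACS (1.89%) and 271 lower (1.92%). Against that background, 1 of 10 is a count that a single gene decides. At an unadjusted p under 0.05 the count was 3 of 10 (Cyp8b1, Abcb11 and Nr1h4), beside 21.6% of all genes. DESeq2 put 2 of 10 past an adjusted p of 0.05 (Cyp8b1 and Abcb11), beside 9.80% of all genes, and limma-voom 1 of 10, beside 3.60%. The median log2 fold change over the 10 genes was 0.02, that over all genes tested was -0.01, and 6 of the 10 estimates were positive. All log2 fold changes below are CACS minus NCACS on the edgeR scale, with 95% intervals from the same fit.

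**Figure D1:**
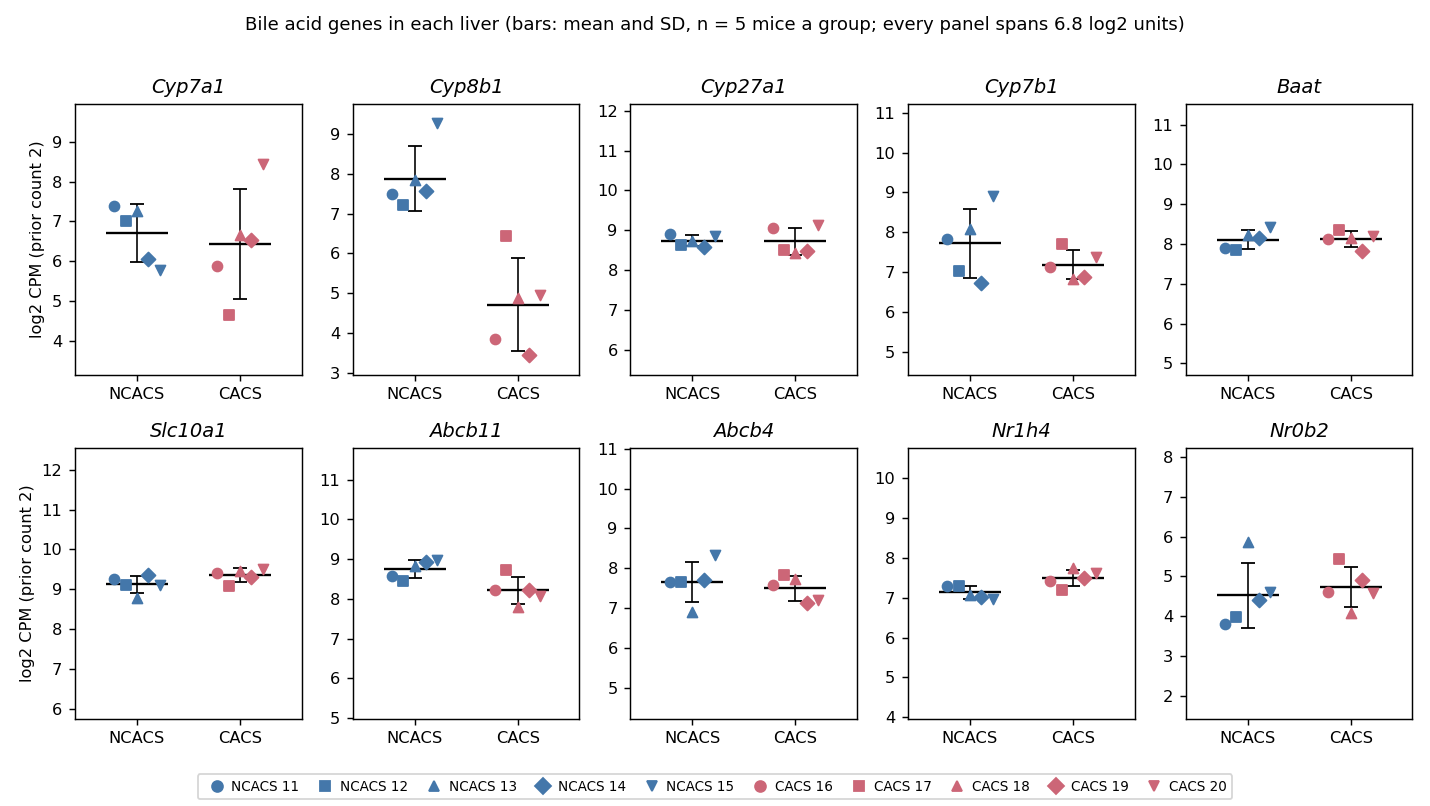
Level of each of the 10 bile acid genes in each liver, as log2 CPM with a prior count of 2, for 5 NCACS (blue) and 5 CACS (red) mice. Each symbol is a mouse, bars give the group mean and SD, and every panel spans the same number of log2 units, so that distances can be compared between genes. Cyp8b1 is the gene whose groups separate, and the points of Cyp7a1 spread widest in CACS.

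Cyp8b1 (ENSMUSG00000050445; GRCm38 chromosome 9, 121914356 to 121916305, minus strand) encodes the sterol hydroxylase that directs synthesis toward cholic acid. Its level was 179.9, 149, 229, 189 and 621 CPM in NCACS mice 11 to 15 and 14.4, 86.0, 29.5, 10.8 and 31.2 CPM in CACS mice 16 to 20. Every CACS liver lay below every NCACS liver, with CACS mouse 17 nearest to the other group and NCACS mouse 15 far above its own. Group means were 273 ± 196 CPM in NCACS and 34.4 ± 30.2 CPM in CACS (SD, n = 5 each).

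The log2 fold change of Cyp8b1 was -2.99 (SE 0.595, 95% interval -4.29 to -1.69, edgeR adjusted p = 0.0252), which is 7.96-fold lower with an interval of 3.23 to 19.6-fold. By its p it ranked 179 among the 14143 genes. Groups that do not overlap were found for 1 of the 10 bile acid genes, and for 7.07% of all genes tested (3.95% in the higher direction and 3.13% in the lower). In bulk liver, fewer cells of a type and less RNA per cell cannot be told apart. Leaving out NCACS mouse 15, the highest liver, gave -2.44 (edgeR adjusted p = 0.0454) and leaving out CACS mouse 17 gave -3.67 (edgeR adjusted p = 0.0109), while the call was lost without CACS mouse 16 or 20 (edgeR adjusted p = 0.0581 and 0.0574, in a range of 0.0109 to 0.0581 over the 10 fits).

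The 250 bases before the start of Cyp8b1 are shown because it is the member that passed the test. They lie at chr9:121916306-121916555 of GRCm38.p6 on the minus strand and come from RefSeq, and the capitals mark the only match found there, CAAAGTCCA, a known form of the site of the hepatocyte receptor HNF4A, 67 bases before the start.
Cyp8b1: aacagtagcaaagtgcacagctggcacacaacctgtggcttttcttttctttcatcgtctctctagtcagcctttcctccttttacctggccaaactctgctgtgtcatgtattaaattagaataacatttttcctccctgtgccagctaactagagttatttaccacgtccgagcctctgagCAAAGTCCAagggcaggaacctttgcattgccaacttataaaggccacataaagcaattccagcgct
Promoter entries were matched for 7 of the 10 genes, and Cyp7a1, Cyp7b1 and Baat had none. In windows of 300 bases (250 before and 50 after the start), CAAAGTCCA on either strand was present in 0.475% of 32851 mouse promoters, and this motif was added to the search after the sequences had been seen. The other motifs were an inverted repeat, GTCANTGAC, present in 0.387% of promoters, an NR5A2 half-site, CAAGGTCA (1.56%), a DBP site, TTANGTAA (2.32%), and a STAT site, TTCNNNGAA (8.30%). A match describes letters and is not shown binding.

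Cyp7a1 (ENSMUSG00000028240; chromosome 4, 6265612 to 6275633, minus strand) encodes the cholesterol hydroxylase that opens the classical route and limits its rate. Its level was 167, 129, 152, 66.8 and 55.2 CPM in NCACS mice 11 to 15 and 58.9, 25.2, 100.5, 92.8 and 349 CPM in CACS mice 16 to 20. CACS held both the lowest liver, mouse 17, and the highest, mouse 20. Highest over lowest was 13.9-fold in CACS and 3.03-fold in NCACS.

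For Cyp7a1 the log2 fold change was 0.13 (SE 0.579, 95% interval -1.13 to 1.40, edgeR adjusted p = 0.922). As a ratio of CACS to NCACS the interval ran from 0.457 to 2.64, so these 10 livers do not fix the direction. Without CACS mouse 20 the estimate was -0.72 and without CACS mouse 17 it was 0.40.

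Cyp27a1 (ENSMUSG00000026170; chromosome 1, 74713574 to 74737892, plus strand) encodes the mitochondrial sterol hydroxylase that opens the alternative route. Its level was 477, 393, 424, 382 and 459.7 CPM in NCACS and 532, 361, 342, 359.7 and 561 CPM in CACS. The CACS range enclosed the NCACS range, and the CACS livers fell into a high pair (mice 16 and 20) and a low set of 3. Between groups Cyp27a1 had a log2 fold change of 0.01 (SE 0.161, 95% interval -0.34 to 0.37, edgeR adjusted p = 0.972).

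Cyp7b1 (ENSMUSG00000039519; chromosome 3, 18071950 to 18243338, minus strand) encodes the oxysterol hydroxylase that follows Cyp27a1, and is known to be more abundant in male than in female mouse liver. Its level was 227, 131, 268, 106 and 482 CPM in NCACS and 138, 208, 112, 118 and 166 CPM in CACS. The groups overlapped, and NCACS mouse 15 was again the highest liver. Its log2 fold change was -0.71 (SE 0.359, 95% interval -1.49 to 0.07, edgeR adjusted p = 0.276).

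Leaving out NCACS mouse 15 changed the Cyp7b1 estimate to -0.30. In a list of 9 male-biased liver genes that includes Cyp7b1, all 9 estimates were negative. Of the 9, 1 passed the test (Mup7, lower, edgeR adjusted p = 0.0181), which is 11.1%, beside 3.80% of all genes. The groups did not overlap for 3 of the 9, beside 7.07% of all genes. The summed level of the other 8 genes of that list, without Cyp7b1, ran from 2487 to 6329 CPM in NCACS and from 1127 to 2719 CPM in CACS. NCACS mouse 15 alone set the upper limit, which was 3151 CPM over the other 4 NCACS livers, and the group ranges overlapped with and without it. Cyp2d9, 1 of those 8 genes, held 964 to 1400 CPM of the sum in NCACS and 743 to 1306 CPM in CACS. The part of that list in the Cyp7b1 values was not tested.

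Baat (ENSMUSG00000039653; chromosome 4, 49489422 to 49506557, minus strand) encodes the enzyme that joins bile acids to taurine or glycine. Its level was 238, 229, 297, 284 and 342 CPM in NCACS and 277, 325, 283, 226 and 296 CPM in CACS, with full overlap. Baat had a log2 fold change of 0.02 (SE 0.137, 95% interval -0.28 to 0.32, edgeR adjusted p = 0.958). As a ratio of CACS to NCACS the interval ran from 0.823 to 1.24.

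Slc10a1 (ENSMUSG00000021135; chromosome 12, 80953183 to 80968705, minus strand) encodes NTCP, the sodium-dependent carrier that takes conjugated bile acids up from portal blood. Its level was 611, 549, 443, 659 and 555 CPM in NCACS and 682, 542, 703, 633 and 727 CPM in CACS. Of the CACS livers, 3 lay above all NCACS livers and the lowest, mouse 17, lay inside the NCACS range. The log2 fold change was 0.22 (SE 0.132, 95% interval -0.07 to 0.51, edgeR adjusted p = 0.351).

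Abcb11 (ENSMUSG00000027048; chromosome 2, 69238282 to 69342616, minus strand) encodes the bile salt export pump at the canalicular membrane, a known FXR target. Its level was 382, 348, 451, 487 and 505 CPM in NCACS and 301, 425, 223, 299 and 271 CPM in CACS. CACS mouse 17 lay among the NCACS livers, and the other 4 CACS livers lay below all of them. Its interval lay below 0, yet it missed the threshold, with a log2 fold change of -0.52 (SE 0.173, 95% interval -0.89 to -0.14, edgeR adjusted p = 0.114).

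DESeq2 put the Abcb11 difference past the threshold (adjusted p = 0.0364), and edgeR did so when CACS mouse 17 was left out (log2 fold change -0.67, adjusted p = 0.0405). Over the 8 other tools and settings its adjusted p ran from 0.0364 to 0.160, and over the 10 fits without 1 mouse from 0.0405 to 0.217. An antisense gene, Gm13613, and a processed pseudogene, Gm13614, overlap Abcb11, with at most 11 and 2 reads in a liver. The 250 bases before its start, shown because it is a textbook FXR target, lie at chr2:69342617-69342866 (GRCm38.p6, minus strand, RefSeq), and none of the 5 motifs was found in them.
Abcb11: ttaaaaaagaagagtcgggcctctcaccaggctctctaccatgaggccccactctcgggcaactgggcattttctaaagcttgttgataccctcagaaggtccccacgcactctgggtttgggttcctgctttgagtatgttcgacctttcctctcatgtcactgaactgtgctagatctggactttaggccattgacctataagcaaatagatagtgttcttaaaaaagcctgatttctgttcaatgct

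Abcb4 (ENSMUSG00000042476; chromosome 5, 8893717 to 8959231, plus strand) encodes the canalicular flippase that delivers phosphatidylcholine to bile and so protects the ducts from bile salts. Its level was 200.3, 201, 120.1, 208 and 322 CPM in NCACS and 190.5, 228, 212, 139 and 147 CPM in CACS. NCACS held both the lowest and the highest liver. Its log2 fold change was -0.20 (SE 0.229, 95% interval -0.70 to 0.30, edgeR adjusted p = 0.664).

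Nr1h4 (ENSMUSG00000047638; chromosome 10, 89454234 to 89533585, minus strand) encodes FXR, the bile acid receptor. Its level was 158, 157, 135, 130.3 and 126.1 CPM in NCACS and 171, 147, 215, 181 and 196 CPM in CACS. Of the CACS livers, 4 lay above every NCACS liver and mouse 17 lay inside the NCACS range. Nr1h4 had a log2 fold change of 0.37 (SE 0.118, 95% interval 0.11 to 0.62, edgeR adjusted p = 0.105). It had the smallest spread within groups of the 10 genes, with an SD of 0.183 on the log2 CPM scale, and did not pass the threshold.

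Nr0b2 (ENSMUSG00000037583; chromosome 4, 133553376 to 133556536, plus strand) encodes SHP, the repressor that FXR induces and that lowers Cyp7a1 and Cyp8b1 transcription. Its level was 13.8, 15.7, 58.0, 21.1 and 24.2 CPM in NCACS and 24.5, 43.3, 16.8, 30.2 and 23.99 CPM in CACS. The highest liver, NCACS mouse 13, stood above all CACS livers, and the groups overlapped. For Nr0b2 the log2 fold change was 0.07 (SE 0.376, 95% interval -0.76 to 0.89, edgeR adjusted p = 0.942), and it moved to 0.57 when that mouse was left out.

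The 250 bases before the start of Nr0b2 are shown as the promoter of the repressor on which FXR acts, at chr4:133553126-133553375 (GRCm38.p6, plus strand, RefSeq). Capitals mark a match to TTCNNNGAA, TTCAATGAA, 91 bases before the start, and the other 4 motifs were not found.
Nr0b2: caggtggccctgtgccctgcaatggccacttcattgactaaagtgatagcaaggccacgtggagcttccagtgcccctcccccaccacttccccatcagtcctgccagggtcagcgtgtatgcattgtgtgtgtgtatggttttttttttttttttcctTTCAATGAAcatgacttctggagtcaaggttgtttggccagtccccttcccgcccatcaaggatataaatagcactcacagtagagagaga

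**Figure D2:**
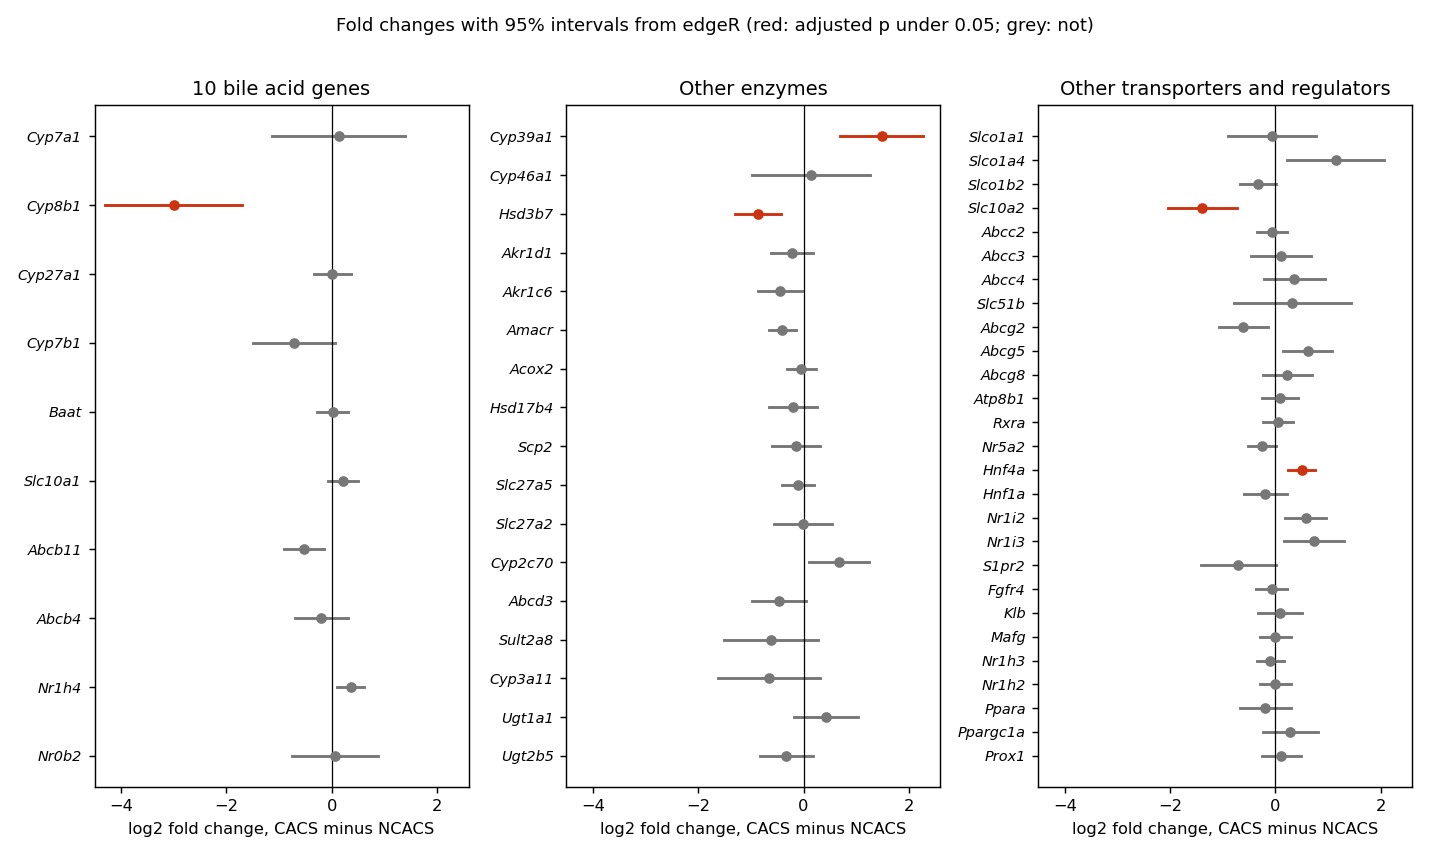
Log2 fold change, CACS minus NCACS, with 95% intervals from edgeR, for the 10 bile acid genes (left), other enzymes of synthesis and detoxification (middle) and other transporters and regulators (right). Red marks an edgeR adjusted p under 0.05: Cyp8b1 among the 10 genes, and Cyp39a1, Hsd3b7, Slc10a2 and Hnf4a among the 44 others tested.

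Within the 10 genes the spread between mice of a group differed widely. The pooled SD of log2 CPM was 1.10 for Cyp7a1, 1.003 for Cyp8b1, 0.674 for Nr0b2 and 0.665 for Cyp7b1, and it was lowest for Nr1h4. Per kilobase of exon and ordered by mean log2 level over the 10 livers, Slc10a1 came out highest, with a median level of 283 CPM per kb, followed by medians for Cyp27a1 (188), Baat (146), Cyp7b1 and Abcb11 (70.3 and 71.0), Nr1h4 (68.5), Cyp8b1 (60.2), Cyp7a1 (23.2), Nr0b2 and Abcb4 (21.3 and 21.4). Slc10a1 exceeded Cyp27a1 in 10 of 10 livers, and Cyp27a1 exceeded Baat in 9 of 10. Ranges over the 10 livers overlapped for each neighbouring pair in that order. Cyp8b1 changed its place between groups, with 140.3 ± 100.6 CPM per kb in NCACS and 17.6 ± 15.5 CPM per kb in CACS (SD, n = 5 each). Its NCACS mean lay above those of Nr1h4 (61.4 ± 6.62), Abcb11 (84.5 ± 13.1) and Cyp7b1 (112.1 ± 68.9). Its CACS mean was the lowest of the 10 genes, below Nr1h4 (79.1 ± 11.2), Abcb11 (59.0 ± 14.5) and the next lowest, Abcb4 (19.5 ± 4.20).

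Balances inside a liver were compared as log2 ratios of CPM for 5 pairs of genes, with a two-sided exact permutation test over all assignments of the 10 livers, whose smallest p is 0.00794, and adjustment over the 5 ratios. None passed an adjusted p of 0.05. The ratio of Cyp8b1 to Cyp7a1, the branch to cholic acid against entry to the classical route, was 0.10, 0.20, 0.59, 1.498 and 3.49 in NCACS mice 11 to 15 and -2.03, 1.77, -1.77, -3.10 and -3.49 in CACS mice 16 to 20. It was above 0 in all NCACS livers and below 0 in 4 of 5 CACS livers, with CACS mouse 17 the exception. The difference was -2.90 (exact p = 0.0397, adjusted p = 0.0992).

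The ratio of Abcb11 to Slc10a1, canalicular export against uptake from blood, was -0.68, -0.66, 0.03, -0.44 and -0.14 in NCACS and -1.18, -0.35, -1.66, -1.08 and -1.42 in CACS. Again 4 of 5 CACS livers lay below all NCACS livers and mouse 17 did not. The difference was -0.76 (exact p = 0.0318, adjusted p = 0.0992). Without CACS mouse 17, both this ratio (-0.96) and that of Cyp8b1 to Cyp7a1 (-3.77) reached an exact adjusted p of 0.0198. That mouse is the only CACS liver overlapping NCACS in either ratio, so without it the groups separate fully. The exact p before adjustment is then the lowest the test can give, which follows from the choice of mouse. Over the 10 fits without 1 mouse the exact adjusted p of each ran from 0.0198 to 0.218.

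For the 3 remaining ratios the differences were small beside the spread. Cyp7b1 to Cyp27a1, the steps of the alternative route, differed by -0.52 (exact p = 0.238), Cyp7a1 to Cyp27a1, the entries of the routes, by -0.25 (exact p = 0.706), and Nr0b2 to Nr1h4, target to receptor, by -0.16 (exact p = 0.762), with exact adjusted p between 0.397 and 0.762.

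**Figure D3:**
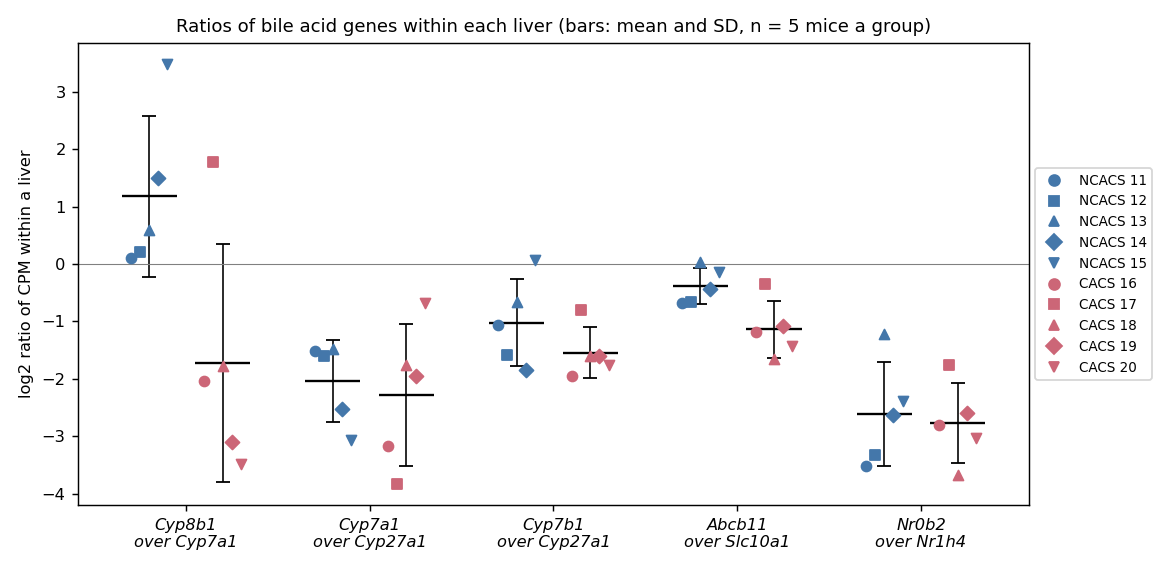
Log2 ratio of CPM within each liver for 5 pairs of bile acid genes, 5 NCACS (blue) and 5 CACS (red) mice, with group mean and SD. For Cyp8b1 over Cyp7a1 and for Abcb11 over Slc10a1, 4 of 5 CACS livers lie below every NCACS liver, and CACS mouse 17 (red square) lies among the NCACS livers.

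CACS mouse 17 was thus the liver of its group nearest to NCACS for Cyp8b1, Abcb11 and Nr1h4, and it had the lowest Cyp7a1. NCACS mouse 15 had the highest Cyp8b1, Cyp7b1, Baat, Abcb11 and Abcb4 and the lowest Cyp7a1 and Nr1h4 of its group. Its recorded weight change, -14%, was the largest loss in NCACS and close to the study's limit of 15% for CACS. The other NCACS mice were at -3% to -11%. Mouse 15 also stood apart in the circadian output gene Dbp, at 1.27 CPM against 52.1 to 82.9 CPM in the other 4 NCACS livers and 18.8 to 58.8 CPM in CACS. Of 16 clock and clock output genes, 0 passed the edgeR test between groups and 6 had an unadjusted p under 0.05, beside 21.6% of all genes. The part of the clock genes in the bile acid gene values was not tested, and the Cyp8b1 difference without mouse 15 is given above.

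**Figure D4:**
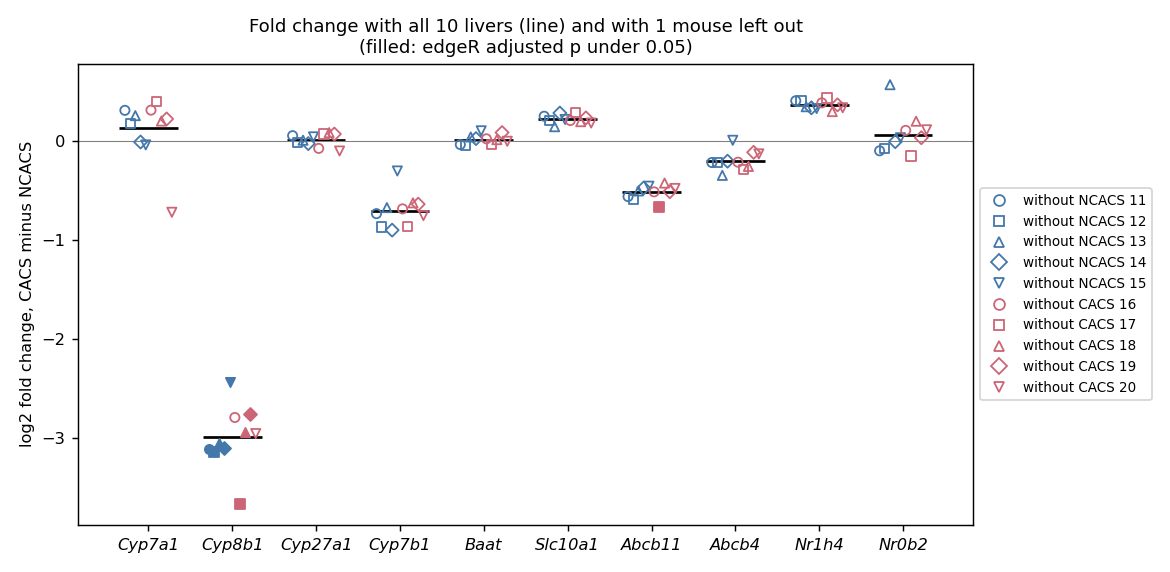
Log2 fold change, CACS minus NCACS, of each bile acid gene with all 10 livers (black line) and with each mouse left out in turn (symbols, blue for NCACS and red for CACS). Filled symbols had an edgeR adjusted p under 0.05. Cyp8b1 stays between -3.67 and -2.44 in all 10 fits and is filled in 8 of them, Abcb11 is filled in 1, and Cyp7a1 ranges from -0.72 to 0.40.

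Weight loss varied within groups, and each gene's log2 CPM was therefore also set against weight change after removing the group means, with an exact permutation over 14400 pairings of weights within groups. None of the 10 slopes passed (exact adjusted p = 0.942 for each). The smallest exact p was 0.219, for Cyp7b1, whose level was 0.108 log2 units lower for each percentage point less of weight lost. Without NCACS mouse 15 that slope shrank from -0.108 to -0.0328.

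The other genes of the pathway were read from a list of 50, of which 44 were tested. Of these, 4 passed the edgeR test, 2 higher and 2 lower in CACS (9.09%, beside 3.80% of all genes). The list was chosen with earlier results of these data known, so its shares are a description and not a test. An unadjusted p under 0.05 was found for 12 of the 44, beside 21.6% of all genes. The median log2 fold change over the 44 was -0.05. By role, 2 of 13 synthesis enzymes, 1 of 4 uptake transporters, 0 of 8 export transporters, 1 of 15 sensors and regulators and 0 of 4 detoxification enzymes passed. Groups that do not overlap were found for 5 of the 44, beside 7.07% of all genes tested. These were the 4 that passed and Amacr (log2 fold change -0.41, edgeR adjusted p = 0.0738). For genes picked by a low p, such separation follows in part from the choice. None of the 4 kept an adjusted p under 0.05 in more than 2 of the 10 edgeR fits without 1 mouse.

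Hsd3b7, the dehydrogenase that acts after the initial hydroxylation in both routes, was lower in CACS. Its level was 546, 495, 611, 633 and 830.3 CPM in NCACS and 321, 468, 328, 372 and 219 CPM in CACS. Hsd3b7 had a log2 fold change of -0.87 (SE 0.200, edgeR adjusted p = 0.0375), with adjusted p between 0.0261 and 0.0817 in the fits without 1 mouse.

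Cyp39a1, a hydroxylase of an oxysterol that reaches the liver from other organs, was higher in CACS. Its level was 4.63, 7.05, 4.37, 7.08 and 11.9 CPM in NCACS and 15.7, 17.1, 39.1, 13.7 and 12.2 CPM in CACS. The highest NCACS liver, mouse 15, came close to the lowest CACS liver, mouse 20. Cyp39a1 had a log2 fold change of 1.48 (SE 0.358, edgeR adjusted p = 0.0435, 0.0385 to 0.0939 without 1 mouse).

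Slc10a2, the sodium-dependent carrier of the ileum that in liver is known from bile duct cells, was lower in CACS at a low level. Its level was 8.69, 17.1, 15.9, 6.32 and 6.08 CPM in NCACS and 4.07, 3.70, 4.73, 4.99 and 3.21 CPM in CACS. The log2 fold change was -1.39 (SE 0.302, edgeR adjusted p = 0.0327, 0.0300 to 0.0746 without 1 mouse). The summed level of the 8 listed cholangiocyte markers was 55.5 to 73.2 CPM in NCACS and 38.6 to 71.2 CPM in CACS, 5 of the 6 tested had a negative log2 fold change, and Cftr and Sctr were near 0 throughout. Their part in the Slc10a2 values was not tested.

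Hnf4a, the nuclear receptor that maintains hepatocyte gene expression and is known to act on the Cyp7a1 and Cyp8b1 promoters, was higher in CACS. Its level was 632, 636, 637, 568 and 688 CPM in NCACS and 908, 826, 729, 1007 and 988 CPM in CACS. Hnf4a had a log2 fold change of 0.50 (SE 0.120, edgeR adjusted p = 0.0435, 0.0417 to 0.0974 without 1 mouse), the reverse of the direction of Cyp8b1.

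The most abundant genes of each role did not pass the test otherwise. Among the enzymes, Scp2, which cleaves the side chain in the peroxisome, had a log2 fold change of -0.15 (edgeR adjusted p = 0.727) and Slc27a2, an acyl-CoA synthetase, one of -0.01 (edgeR adjusted p = 0.984). For the sinusoidal uptake carriers the values were -0.33 for Slco1b2 (edgeR adjusted p = 0.241) and -0.06 for Slco1a1 (edgeR adjusted p = 0.946). The exporters Abcc2, at the canaliculus, and Abcc3, at the sinusoid, had values of -0.07 (edgeR adjusted p = 0.815) and 0.11 (edgeR adjusted p = 0.846).

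Rxra, the partner of FXR in binding DNA, had a log2 fold change of 0.05 (95% interval -0.23 to 0.33, edgeR adjusted p = 0.872). The FGF15 receptor Fgfr4 and its coreceptor Klb had values of -0.07 (95% interval -0.37 to 0.22) and 0.09 (95% interval -0.32 to 0.50), and Fgf15 itself, made in the ileum, had 0 reads in all livers. For the bile acid detoxification enzymes Cyp3a11 and Ugt2b5 the values were -0.66 (edgeR adjusted p = 0.413) and -0.33 (edgeR adjusted p = 0.432). Cyp3a11, Ugt2b5, Slco1a1 and Mup7 belong to families of closely related genes. Reads may therefore have been split or dropped among relatives in counting, and the values of these genes are uncertain. Ch25h, Slc51a, Vdr, Gpbar1, Fgf15 and Sult2a1 were too low to be tested.

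For the 3 members that varied most within groups, the genes with the most similar profile were found by the root mean square distance of log2 CPM, centred on each gene's mean, over the 10 livers and 14142 other genes. For Cyp8b1 these were Spon2 (0.778 log2 units), Tnfaip8l3 (0.779) and Ces2c (0.794). For Cyp7a1 they were Vmn1r51 (0.522), Ccne1 (0.559) and Nupr1l (0.590), all at 3.44 CPM or lower in every liver. For Nr0b2 they were Arhgef16 (0.306), Gm10643 (0.344) and Zfp36 (0.354), an immediate early gene. Arhgef16 was at 2.31 CPM or lower and Gm10643 at 0.93 CPM or lower in every liver. Zfp36 was highest in the livers where Nr0b2 was highest, at 116 CPM in NCACS mouse 13 and 118 CPM in CACS mouse 17. All these genes were picked for likeness over the same livers, so such shared peaks follow from the choice.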

How the data were processed

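RNA from livers of 5 NCACS and 5 CACS mice was sequenced by the authors as stranded poly(A) libraries in single reads, aligned to GRCm38 with STAR 2.4.1d and counted per gene with HTSeq 0.6.1, per the labels and methods. The annotation release and strand setting of the counting are not given in the sources used here. The deposited values are raw counts for 43629 Ensembl genes, and symbols and coordinates came from GENCODE M21 (1081 IDs had no entry). Groups and weight change came from the labels, which record the weight values under weight loss with a minus sign.

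Counts were analysed in R 4.3.3 with edgeR 4.0.16 (filterByExpr, TMM scaling, glmQLFit and glmQLFTest, adjusted p under 0.05 by Benjamini-Hochberg over all 14143 genes tested). CPM are TMM-scaled, and log2 CPM used a prior count of 2. CPM per kb divides by the summed exon length in GENCODE M21. The study names DESeq2, used here (1.42.0) as an alternative beside limma-voom (3.58.1), other scalings and filters, a robust fit, an adjusted p of 0.01 and leaving out each mouse. On simulated counts with 200 genes changed 4-fold (13959 genes tested), edgeR called 198, of which 188 were true. DESeq2 called 228, of which 191 were true, and limma-voom called 193, of which 184 were true. No smaller change was simulated.

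An allele of the mice and a gene of 1 list are not reported here. The 10 members and all gene lists were chosen with earlier results of these data known. Their shares beside those of all genes are therefore descriptions and not tests. Named genes were all members, every gene of the wider list that passed, the 2 most abundant tested genes of each role and genes a result turned on (Fgfr4, Klb, the untested genes and single list genes were named after their values were seen). Marker lists covered hepatocytes, cholangiocytes, Kupffer, endothelial, stellate and lung epithelial cells and lymphocytes. One hepatocyte symbol had no entry. Whether the mice came from separate litters is not given, so p-values measure the spread between these 10 livers.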

Additional observations from a re-analysis of the deposited data

Results flagged for a closer look

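The level of Cyp39a1 in CACS mouse 18 stood apart from the other CACS livers: it was 39.1 CPM against 12.2 to 17.1 CPM, and on the log2 scale its gap to the next liver was 0.7105 of the range of the group, just above Dixon's critical value for 5 samples. It was the only 1 of 38 combinations of a gene or ratio and a group to pass, where chance passes about 1 in 20. Without that mouse the log2 fold change of Cyp39a1 was 1.07 (edgeR adjusted p = 0.0605) in place of 1.48 (edgeR adjusted p = 0.0435).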

How the results depend on the processing

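The number of genes past the threshold was 538 and became 1386 with DESeq2, 34 at an adjusted p of 0.01 and 178 to 519 when 1 mouse was left out, lowest without NCACS mouse 11. Of the 10 bile acid genes 1 passed, against 2 with DESeq2, 0 at 0.01 and 0 to 2 without 1 mouse (0 without CACS mouse 16 or 20, 2 without CACS mouse 17). Of the wider list 4 passed, against 6 with DESeq2, 0 at 0.01, 0 to 2 without 1 mouse and 3 in each of 4 other settings, where a different gene lost its call: Slc10a2 with limma-voom (adjusted p = 0.0564), Hsd3b7 with raw library totals (edgeR adjusted p = 0.0531), Hnf4a with no filter (edgeR adjusted p = 0.0763) and Cyp39a1 with the robust edgeR fit (adjusted p = 0.0577). Cyp8b1 kept its direction and its call under all 8 other tools, scalings and filters, with log2 fold changes from -3.18 to -2.94 and adjusted p from 0.000161 to 0.0414. With limma-voom the estimates of Cyp7a1 (-0.25) and Cyp27a1 (-0.019) changed sign. Without 1 mouse the log2 fold change ran from -0.72 to 0.40 for Cyp7a1, -0.099 to 0.087 for Cyp27a1, -0.045 to 0.11 for Baat, -0.35 to 0.0097 for Abcb4 and -0.15 to 0.57 for Nr0b2, none with an edgeR adjusted p under 0.05. The log2 ratios ran from -3.77 to -2.32 for Cyp8b1 to Cyp7a1, -0.96 to -0.63 for Abcb11 to Slc10a1, -0.65 to 0.14 for Cyp7a1 to Cyp27a1 and -0.41 to 0.19 for Nr0b2 to Nr1h4. The slopes on weight change ran from -0.0511 to 0.119 for Cyp7a1, -0.122 to 0.0414 for Cyp8b1, -0.143 to -0.0328 for Cyp7b1, -0.0148 to 0.00905 for Cyp27a1 (0.00117 with raw library totals), -0.0135 to 0.0356 for Abcb11, -0.0591 to 0.0494 for Abcb4 and -0.0132 to 0.0170 for Nr1h4. Leaving out a mouse reduces the number of livers, and beyond that the cause of these differences was not tested. No scaling moved the share of higher calls, 49.6%, by over 10 percentage points. No paired analysis was possible because mice of the 2 groups carry different numbers. At 382 or more reads in every liver, the members were not near the limit of detection, and the intervals reflect 5 mice a group.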

Other observations

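In the list of female-biased liver genes, 8 of 11 were tested and 3 passed the edgeR test (37.5%, beside 3.80% of all genes), 2 higher and 1 lower, of which Cux2 and Hao2 are described here. Over the 8 tested genes 3 estimates were positive and 5 negative, the median log2 fold change was -0.68, and the groups overlapped for all 8. Cux2, a transcription factor of female liver, was higher in CACS (log2 fold change 5.44, edgeR adjusted p = 0.0298), with levels of 0.29 to 0.65 CPM in NCACS and 0.55 to 53.4 CPM in CACS. Hao2, a hydroxyacid oxidase, was lower (log2 fold change -4.03, edgeR adjusted p = 0.0323). Its level was low throughout, at 2.67, 4.33, 0.42, 5.18 and 0.22 CPM in NCACS mice 11 to 15 and 0.05 to 0.36 CPM in CACS. CACS mice 16, 18 and 20 held the high values of Cux2 (30.6, 17.3 and 53.4 CPM), while mice 17 and 19 were at 0.55 and 0.82 CPM. In the male-biased list, Mup7 was lower in CACS, at 2.15 to 29.96 CPM against 80.6 to 1642 CPM in NCACS.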
